A study of Oryctolagus cuniculus with 2 samples.

Results

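Interferon-stimulated genes are the genes a cell switches on when interferon binds its receptors, and the interferon regulatory factors (IRF factors) are transcription factors that act in the production of interferon and in the response to it. Type I interferon signals through the kinases JAK1 and TYK2 to a complex that contains STAT2 and IRF9 and binds a shared element in the promoters of these genes. Many of the products sense foreign RNA, block viral replication or attach the ubiquitin-like protein ISG15 to other proteins, and in the retina microglia and Müller glia are among the cells that can respond. A list of 55 such genes was read in rabbit retina after retinal vein occlusion (RVO). A gene was read from the probe set of the array whose annotation gave its symbol and no other, and 39 of the 55 genes had one. Of these, 36 passed the study's limit for low signals, under which a gene is left out if its log2 signal is below 5 in both arrays. In the whole series 15605 genes had a probe set of their own and 12724 passed the same limit.

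The RVO sample was retina taken at day 7 after the retinal veins of Dutch rabbits were closed with an argon green laser, and the control sample was untreated retina of the same day. By the methods, RVO was made in the right eye and the left eye of the animals served as control, under anesthesia with ketamine and xylazine, and the lasered spot was cut out before RNA was taken. The control is therefore an eye of an operated animal, and the sources used here do not say whether both arrays hold eyes of 1 animal. Total RNA of each condition was hybridized to 1 Rabbit Gene 1.0 ST array, which reads a transcript with a set of short probes, so no difference could be set against replicate error and no test was possible. Differences are RVO minus control on the log2 scale, where 1 is 2-fold, and genes were counted by size. The retina was measured as a mixture of cells. More cells of a type, more RNA per cell and a difference in the tissue taken therefore cannot be told apart.

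In the RVO array 11 of the 36 interferon genes passed 2-fold upwards and none passed it downwards. The 11 genes were IFI44L, DDX58, IFI44, UBE2L6, IFIT5, PARP14, IFIT2, IRF9, LGALS3BP, PARP9 and IRF5. The background over all 12724 genes was 3.5% beyond 2-fold upwards and 0.479% downwards. The median difference of the interferon genes was 0.64, beside -0.04 over all genes, and 33 of the 36 (91.7%) had a difference above 0, beside 42.8% of all genes. The list was drawn up with results of these data known, so these shares describe the genes and are not independent evidence of a direction.

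**Figure D1:**
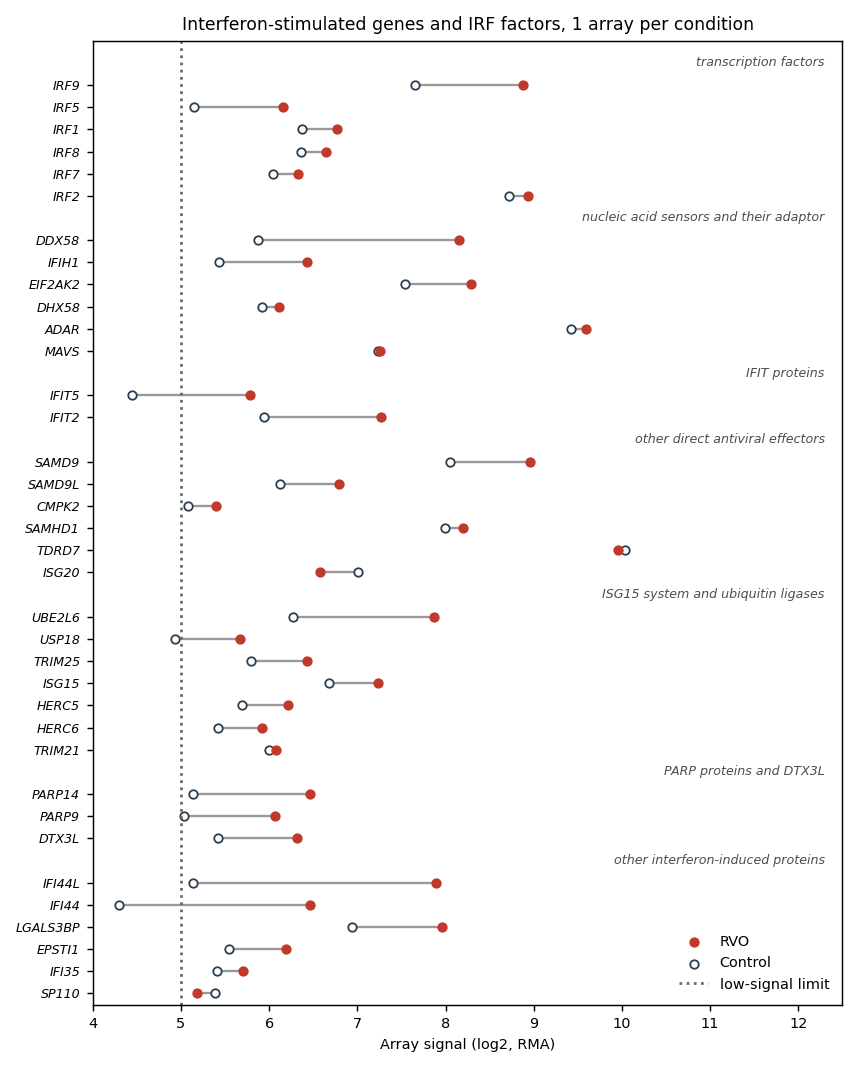
Log2 array signal (x axis) of the 36 interferon genes in the RVO array (filled) and the control array (open), grouped by role, with a line joining the values of a gene and the low-signal limit of 5 dotted. The filled point lies to the right for 33 genes and to the left for ISG20, SP110 and TDRD7; signals of different genes come from different probes and are not comparable.

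The differences were spread over a wide range. Of the 36 genes, 3 were higher by over 2 on the log2 scale, 8 by 1 to 2, 10 by 0.5 to 1 and 12 by 0 to 0.5, while 3 lay below 0. The share with a difference of 0.5 to 1 was 27.8%, beside 5.46% of all genes. At a 3-fold limit 4 of the 36 genes were higher, beside 1.52% of all genes, and at 1.5-fold 19 were higher, beside 7.25% of all genes. The limit itself passed through a dense stretch of the list. LGALS3BP, PARP9 and IRF5 lay just past it at 1.03, 1.03 and 1.02, and IFIH1 lay just short of it at 0.99.

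**Figure D2:**
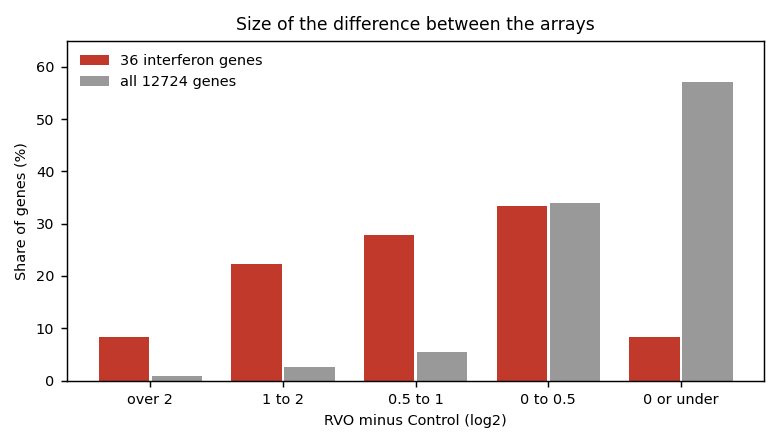
Share of genes in percent (y axis) in each class of log2 difference, RVO minus control (x axis), for the 36 interferon genes (red) and all 12724 genes (grey). The class of 0.5 to 1 holds 27.8% of the interferon genes and 5.46% of all genes, and the class of 0 or under holds 8.33% and 57.2%.

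A signal under 5 on the control array bears on the size of 3 of these differences. The control signals were 4.30 for IFI44, 4.44 for IFIT5 and 4.93 for USP18, so these genes passed the limit through the RVO array alone. Among the 33 genes at 5 or above in both arrays, 9 were higher by over 2-fold, beside 2.66% of all genes measured in the same way, and their median was 0.55. Every member with a probe set had only 1, so no second probe set was there to compare. Across the array, 118 genes with several probe sets past the limit gave a pooled SD of 0.19 between the differences of their probe sets, which covers neither the animals nor errors shared by a whole array.

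The transcription factors are given first. Of 6 measured, 2 were higher by over 2-fold, beside 3.5% of all genes. IRF9, the DNA-binding subunit of the complex that answers type I interferon, had a log2 signal of 8.88 in the RVO array and 7.66 in the control array, a 2.34-fold difference. IRF5, which acts downstream of Toll-like receptors in myeloid cells, had 6.16 in the RVO array and 5.15 in the control array, a 2.02-fold difference. The other factors were within 2-fold. IRF1, an activator induced by interferon gamma, had 6.77 in the RVO array and 6.37 in the control array. IRF2, which competes with IRF1 for its sites, had 8.94 in the RVO array and 8.71 in the control array. IRF7, the main driver of type I interferon production, had 6.32 in the RVO array and 6.04 in the control array, so these 3 factors were each higher by under 0.5. IRF8, a factor of macrophage and microglia development, had 6.64 in the RVO array and 6.36 in the control array. IRF4, a factor of lymphocytes and some macrophages, was under the signal limit in both, at 4.65 in the RVO array and 4.61 in the control array. IRF3 and STAT2 had no probe set of their own.

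Among the sensors of foreign RNA, the RIG-I gene had the highest difference. DDX58, which the array annotation carries under its current symbol RIGI, encodes a helicase that detects viral RNA ends. Its log2 signal was 8.15 in the RVO array and 5.87 in the control array, a 4.84-fold difference that stood at rank 86 of 12724 genes in the order from the highest difference. Without this gene, the only one matched by a newer symbol, 10 of 35 genes were higher by over 2-fold, beside 3.5% of all genes. IFIH1, which encodes MDA5, the related sensor of long double-stranded RNA, had 6.43 in the RVO array and 5.43 in the control array. This is a 1.99-fold difference, just short of the limit. DHX58, the third helicase of the family, which binds RNA but lacks the signalling domain of the others, had 6.11 in the RVO array and 5.92 in the control array. MAVS, the mitochondrial adaptor on which the RIG-I and MDA5 signals meet, had 7.26 in the RVO array and 7.23 in the control array. The 3 helicases thus differed by 2.27, 0.99 and 0.20 and their adaptor by 0.03. EIF2AK2, the kinase PKR that stops translation on double-stranded RNA, had 8.29 in the RVO array and 7.54 in the control array. ADAR, which edits adenosines in double-stranded RNA, had 9.59 in the RVO array and 9.43 in the control array. ZBP1, a sensor of Z-form nucleic acid, had no probe set.

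Some IFIT proteins bind RNA that lacks the marks of a host transcript. Both measured IFIT genes were higher by over 2-fold, beside 3.5% of all genes. IFIT2 had a log2 signal of 7.27 in the RVO array and 5.95 in the control array, a 2.50-fold difference. IFIT5 had 5.79 in the RVO array and 4.44 in the control array, a 2.54-fold difference from a low control signal. IFIT1 had no probe set, and the probe set of IFIT3 also carried another gene, so neither was read.

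Of 6 other measured genes that act on viruses directly none was beyond 2-fold, beside 3.5% of all genes upwards and 0.479% downwards. A group of 6 genes is too small to set against those shares. The median of the 6 was 0.26. SAMD9 and SAMD9L, neighbouring genes of a family that restricts poxviruses, had the highest differences of this group. SAMD9 had 8.96 in the RVO array and 8.06 in the control array, a 1.88-fold difference. SAMD9L had 6.79 in the RVO array and 6.12 in the control array, a 1.59-fold difference. CMPK2, a mitochondrial nucleotide kinase, differed by 0.32 and SAMHD1, which degrades the building blocks of DNA, by 0.20. TDRD7, a Tudor domain protein also needed in the lens, differed by -0.08. ISG20, an RNA exonuclease, had the lowest difference of the 36 genes, with 6.58 in the RVO array and 7.003 in the control array, or 0.746-fold. RSAD2, which encodes viperin, was under the signal limit in both arrays, at 4.97 in the RVO array and 4.55 in the control array. OAS2, an enzyme that makes the activator of RNase L, was under it too, at 4.81 in the RVO array and 4.68 in the control array. OAS1, MX1, MX2, GBP2 and BST2 had no probe set, and that of OASL carried a second gene, so much of the classical antiviral group was not read.

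ISG15 is joined to target proteins by a chain of enzymes that interferon also induces. All 7 measured genes of this system and of the related ubiquitin ligases had a difference above 0. The share above 0 was 91.7% of the 36 genes and 42.8% of all genes. UBE2L6, the conjugating enzyme for ISG15, was the only one of the 7 beyond 2-fold, beside 3.5% of all genes upwards. Its log2 signal was 7.87 in the RVO array and 6.27 in the control array, a 3.03-fold difference. ISG15 itself had 7.23 in the RVO array and 6.68 in the control array, a 1.46-fold difference. The ligase HERC5 differed by 0.53 and its neighbour HERC6, the ISG15 ligase of mice, by 0.49. The array thus gave a larger difference for the conjugating enzyme than for ISG15 and its ligases. USP18, which removes ISG15 and dampens the interferon receptor, had 5.67 in the RVO array and 4.93 in the control array. TRIM25, a ligase that activates RIG-I, had 6.43 in the RVO array and 5.80 in the control array. TRIM21, an antibody receptor of the cytosol, differed by 0.09, and RNF213 had no probe set.

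PARP9, PARP14 and DTX3L lie side by side in the rabbit genome and encode proteins that modify others with ADP-ribose or ubiquitin. PARP14 had a log2 signal of 6.46 in the RVO array and 5.14 in the control array, a 2.50-fold difference. PARP9 had 6.06 in the RVO array and 5.04 in the control array, a 2.04-fold difference. DTX3L, the ubiquitin ligase that pairs with PARP9, had 6.31 in the RVO array and 5.42 in the control array, a 1.85-fold difference. The 3 neighbours therefore had differences of 0.89 to 1.32, while PARP10 and PARP12 had no probe set.

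IFI44L had the highest difference of the 36 genes, and its neighbour IFI44 the third highest, after DDX58. The products of both are not understood in detail. IFI44L had a log2 signal of 7.89 in the RVO array and 5.14 in the control array, a 6.72-fold difference and rank 53 of 12724 genes. IFI44 had 6.46 in the RVO array and 4.30 in the control array, a 4.48-fold difference and rank 103, both of which rest on a control signal under the limit of 5. LGALS3BP, a secreted protein that binds galectins, had 7.96 in the RVO array and 6.94 in the control array, a 2.04-fold difference. The remaining genes of this group were within 2-fold. EPSTI1 had 6.20 in the RVO array and 5.55 in the control array. IFI35, a partner of NMI, differed by 0.30. SP110, a nuclear body protein, had 5.18 in the RVO array and 5.38 in the control array. IFI30 had no probe set, and that of XAF1 carried a second gene.

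**Figure D3:**
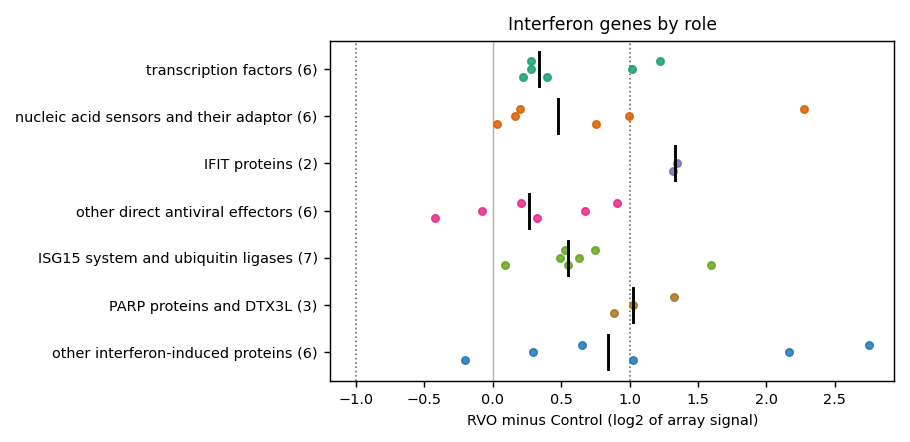
Log2 difference, RVO minus control (x axis), of each measured interferon gene by role, with the number of genes in brackets, the median of a role as a black bar and 2-fold limits dotted. The medians are 1.33 for the 2 IFIT genes, 1.03 for PARP9, PARP14 and DTX3L, 0.84 for the group of IFI44 and IFI44L, 0.55 for the ISG15 system, 0.47 for the sensors, 0.34 for the transcription factors and 0.26 for the other antiviral effectors.

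Genes that lie next to each other had differences of the same sign. In the RefSeq assembly mOryCun1.1, where all 36 genes were found, 5 pairs of them had no other protein-coding gene between them. IFI44 and IFI44L differed by 2.16 and 2.75, SAMD9L and SAMD9 by 0.67 and 0.91, and HERC5 and HERC6 by 0.53 and 0.49. These 3 are pairs of related genes, and whether a probe for one also binds the transcript of the other was not tested. The other pairs were PARP9 with DTX3L, and DTX3L with PARP14, whose values are given above. With 33 of the 36 genes above 0, a shared sign says little about neighbours.

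The genes upstream of the response were read from lists of the same pathway. Over all genes 42.8% had a difference above 0 and 3.5% passed 2-fold upwards. Of 9 measured genes of interferon receptors and kinases, 7 had a difference above 0, 1 passed 2-fold upwards, and the median was 0.54. That gene was IL10RB, a chain shared by the receptors of interferon lambda and interleukin 10, with a log2 signal of 7.66 in the RVO array and 4.59 in the control array. The receptor chains for type I interferon were within 2-fold. IFNAR1 had 9.80 in the RVO array and 9.05 in the control array. IFNAR2 had 9.11 in the RVO array and 8.57 in the control array. Those for interferon gamma were within it too. IFNGR1 differed by 0.84 and IFNGR2 by 0.82. IFNLR1, the specific chain for interferon lambda, differed by -0.22, in the opposite direction to IL10RB. Of the kinases, JAK1 differed by 0.19, JAK2 by 0.14 and TYK2 by -0.19. The genes that encode interferons and had a probe set were below the signal limit in both arrays. IFNB1 had 2.96 in the RVO array and 2.89 in the control array, IFNG had 2.52 in the RVO array and 2.26 in the control array, and IFNK had 3.54 in the RVO array and 3.60 in the control array, so their level could not be read. IFNA1 and IFNA2 had no probe set.

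Further along the pathway, of 3 STAT genes measured outside the list, STAT3, which acts downstream of the interleukin 6 family, was higher by 1.47, STAT6 by 0.53, and STAT4 differed by -0.27. Of 8 other sensors and adaptors 1 was higher by over 2-fold, beside 3.5% of all genes, and the median of the 8 was 0.01. That gene was TLR3, the endosomal sensor of double-stranded RNA, with 7.91 in the RVO array and 6.58 in the control array. The adaptor MYD88 differed by 0.61, the kinase TBK1 by -0.24 and IKBKE by -0.16, and STING1 had the same deposited value of 5.24 in both arrays. Of 11 negative regulators, the phosphatase gene PTPN6 of blood cells was higher by 1.32, PTPN2, a phosphatase that acts on JAK1, by 0.66, and the median was -0.00495. TNFAIP3, an inhibitor of NF-κB signalling, was the lowest of them at -0.93.

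A further list held other genes known to be induced by interferon. Of 27 measured, 25 had a difference above 0, 5 passed 2-fold upwards and none passed it downwards. Over all genes these shares were 42.8%, 3.5% and 0.479%. The median of the 27 was 0.20. Those 5 were B2M, the light chain of class I histocompatibility molecules, at 1.92, LGALS9, which encodes galectin-9, at 1.79, the chemokine gene CXCL10 at 1.47, TNFSF10, which encodes the death ligand TRAIL, at 1.22, and TRIM5, a restriction factor of retroviruses, at 1.21. The control signals of CXCL10 and TRIM5 were 4.66 and 4.53. CXCL9 and CXCL11, which bind the same receptor as CXCL10, were under the signal limit, at 2.85 and 4.59 in the RVO array and 2.71 and 4.44 in the control array. TAP1, the peptide transporter of class I presentation, differed by 0.84, NMI by 0.86 and SP100 by 0.83, the last from a control signal of 4.48. IDO1, an enzyme strongly induced by interferon gamma, was also under the limit, at 3.65 in the RVO array and 3.83 in the control array.

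**Figure D4:**
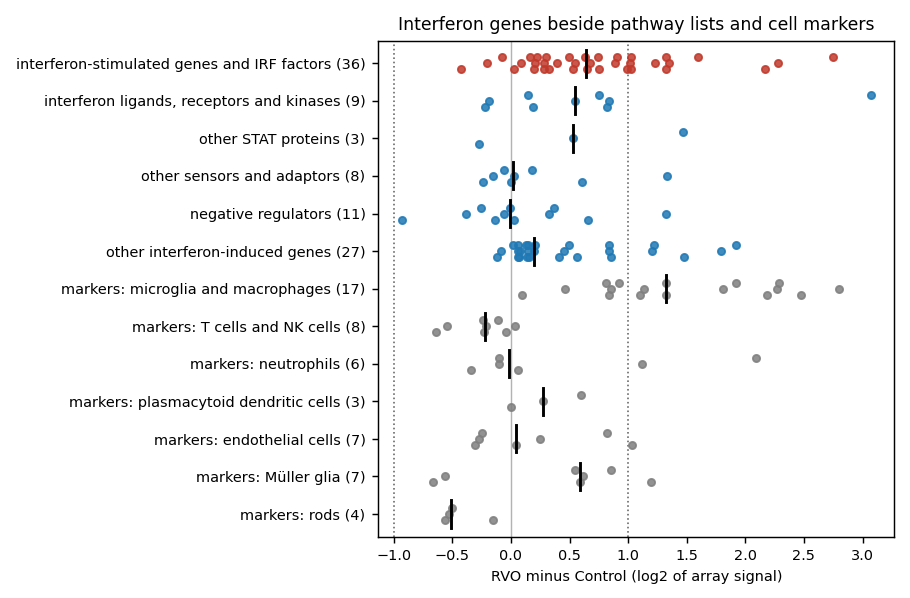
Log2 difference, RVO minus control (x axis), of each measured gene in the interferon list (red), in lists of the same pathway (blue) and in marker lists of cell types (grey), with the number of genes in brackets, medians as black bars and 2-fold limits dotted. Microglia and macrophage markers have a median of 1.32, above the 0.64 of the interferon genes. T cell and NK cell markers, whose signals lie near the low-signal limit, have one of -0.22. Only part of the marker lists is drawn. Among those left out, the medians are 3.29 for skeletal muscle, 1.81 for dividing cells, 1.17 for fibroblasts and -0.85 for retinal ganglion cells.

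Markers of other cell types moved in the same arrays. For the counts by sign below, 42.8% of all genes had a difference above 0 and 57.2% one of 0 or under. Of 17 measured markers of microglia and macrophages, 11 passed 2-fold upwards and none downwards, beside 3.5% and 0.479% of all genes. The median of the 17 was 1.32, and the mean log2 signal of the list was 7.61 in the RVO array and 6.16 in the control array. The pan-leukocyte gene PTPRC was higher by 1.92, CD68 by 2.27, and the microglial genes P2RY12 and TMEM119 by 1.10 and 0.09. Of 8 measured markers of T cells and NK cells none was beyond 2-fold, with a median of -0.22. Their mean log2 signal was 5.03 in the RVO array and 5.28 in the control array. CD3E, ZAP70 and TBX21 were under 5 in the RVO array, at 4.52, 4.87 and 4.77, and 3 further listed genes failed the limit. With signals this near the limit, the T cell and NK cell list says little about these cells. Of 6 neutrophil markers 3 lay below 0 and the median was -0.02. CXCR1 was higher by 1.12 and S100A8 by 2.09, the second from a control signal of 3.35, under the limit. The plasmacytoid dendritic cell list had 3 measured genes, none beyond 2-fold. Its genes CLEC4C, LILRA4, SPIB, TLR7 and TLR9 had no probe set, so the list says little about these cells. Of 7 markers of Müller glia 5 were above 0 and the median was 0.59. GFAP, a filament protein of reactive glia, was higher by 1.20, while RLBP1 and GLUL, which serve the visual cycle and glutamate recycling, differed by -0.67 and -0.56. All 8 measured skeletal muscle markers passed 2-fold upwards, at a median of 3.29, as did 6 of 7 fibroblast markers. Of 8 markers of dividing cells 5 did so, each from a control signal under 5, and those at 5 or above in both arrays, CCNA2 and AURKB, differed by -0.27 and -0.06. All 8 retinal ganglion cell markers lay below 0, 4 of them by over 2-fold, at a median of -0.85, and so did all 6 cone markers and all 4 rod markers, none by over 2-fold, at medians of -0.43 and -0.51. The part of these cells in the differences of the interferon genes was not tested. The rod genes PDE6A, CNGA1 and SAG showed retinal RNA in both samples. Their signals were 11.84, 11.39 and 12.80 in the RVO array and 12.37, 11.90 and 12.95 in the control array. These signals do not show that retina was the only tissue taken. The skeletal muscle gene MYL1 differed by 4.36, beside 2.75 for IFI44L, the highest of the interferon genes. Whether tissue from outside the retina entered the RVO sample was not tested.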

How the data were processed

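Retinal RNA of the RVO condition and of the control was hybridized to an array each. The authors deposited log2 signals from RMA, run in R, which corrects the background, equalizes the distributions of both arrays and summarizes probes into probe sets. The sources used here do not state which annotation that step used. The median log2 signal over 26193 probe sets was 6.23 in the RVO array and 6.25 in the control array. The platform annotation gave 1 symbol for 15816 probe sets, several for 376 and none for 10001, and only the first were named. A gene was read from the probe set with the highest mean of both arrays, and omitted when its higher signal was under 5. Genes were counted beyond 2-fold, with no test, since 1 array per condition leaves no error, and the number of arrays limits the precision.

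Every gene of the list was accounted for. Both signals were given for genes beyond 2-fold and for IRF factors, and further genes were given by their differences or signals. The genes and the lists were chosen with earlier results of these data known. Alternatives were the mean of all probe sets, no signal filter or one at 6, centring, repeated quantile normalization, removal of a lowess trend with signal, and other fold limits. Promoter and protein sequences were not used here. Python 3.11.15, pandas 2.3.3 and statsmodels 0.14.6 were used, and the counting was tested on simulated data.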

Additional observations from a re-analysis of the deposited data

How the results depend on the processing

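The count of 11 higher interferon genes was 10 to 12 under centring, repeated quantile normalization, removal of the trend with signal, a filter at 6, no filter and the mean of all probe sets, and none was lower by over 2-fold in any of them. The added gene under centring, quantile normalization and trend removal was IFIH1, at 1.01, 1.02 and 1.08. The fold limit moved the counts most. At 3-fold, 4 interferon genes were higher, with 1 gene of interferon signalling instead of 4 (IL10RB, STAT3, TLR3 and PTPN6), 2 other interferon-induced genes instead of 5, and 7 microglia and macrophage genes instead of 11. At 1.5-fold these were 19, 9 and 8 genes, 1 gene of interferon signalling was lower, and microglia and macrophage genes were 15. Over all genes 194 were higher and 8 lower at 3-fold, and 923 and 386 at 1.5-fold, beside 445 and 61 at 2-fold. With both arrays at 5 or above, a setting chosen after seeing the data like the one without DDX58, 3 other interferon-induced genes were higher. The median of the interferon genes was 0.55 to 0.71 under the settings of filter and scaling, and 0.32 without the 11 members named in the study's list of genes beyond 2-fold, which removes the 11 genes by construction. No paired analysis was possible because each condition has 1 array, and leaving out a replicate was not possible for the same reason. Signals under 5 limit what the arrays show of IFNB1, IFNG and IFNK, which encode interferons, and of some genes of the list.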
